A study of Homo sapiens with 8 samples.

Results

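Small RNA host genes are noncoding genes that carry snoRNAs or miRNA hairpins within their transcription units. The genes described here were taken by name from the read count table of a combined long-read transcript assembly. They are the genes named SNHG with a number, the genes named MIR and ending in HG, and GAS5, DANCR, ZFAS1 and EPB41L4A-AS1, wherever the assembly itself names a transcript for the gene. This gave 57 of 20195 named genes, with 460 assembled transcripts, of which 29 are snoRNA hosts and 28 miRNA hosts by their names. Another 35 transcripts listed under such names had no gene name in the assembly and were left out. MIR181A2HG and MIR4432HG, the 2 genes listed only through such transcripts, were left out with them. Of the 57 genes, 26 had enough reads to be tested.

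The cells were H1 cells, a long-established line of human embryonic stem cells, kept undifferentiated (hPSC) or differentiated in culture and collected after 5 days. Ectoderm medium held the inhibitors A83-01, PNU-74654 and Dorsomorphin, endoderm medium WNT3A and Activin A, and mesoderm medium VEGF, BMP4 and bFGF, with Activin A in the opening day only. Each of the 4 groups had 2 libraries of polyadenylated RNA sequenced as PacBio long reads, in which 1 read follows 1 RNA molecule, so levels are given as CPM (counts in every 1000000 reads of the library) and are not divided by length. The labels do not say that repeats came from separate cultures, so p-values measure only the spread between these libraries. That spread was uneven. Chi-square between repeats, divided by its degrees of freedom, was 7.625 for hPSC, 2.184 for ectoderm, 2.069 for endoderm and 1.593 for mesoderm. The hPSC repeats thus differed most, and hPSC is the reference of every comparison with it. The tests came from 1 fit over all 8 libraries.

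Library totals ran from 503840 to 1180888 reads, and the ectoderm libraries were the deepest. A count of 0 allowed a level of up to 3 reads, which was 2.54 to 5.95 CPM over the 8 libraries and covers counting error only. The mean length of the assembled transcript behind a read was 4406 and 4650 nt in ectoderm and 2975 to 3840 nt in the other 6 libraries. The summed level of 6 pluripotency markers was 3459 to 3657 CPM in hPSC, 1271 to 1708 in ectoderm, 1696 to 1990 in endoderm and 274 to 292 in mesoderm. Of these, NANOG (log2 fold change -0.22, adjusted p = 0.72) and TDGF1 (-0.32, adjusted p = 0.50) were among those not called in endoderm, where SOX2 was at 0. The 7 endoderm markers summed to 2271 to 2387 CPM in endoderm and to at most 15.1 CPM in any other library. The 6 ectoderm markers summed to 808 to 1039 CPM in ectoderm and 416 to 422 CPM in endoderm, where OTX2 had 409 CPM on average against 144 CPM in ectoderm, and to at most 139 CPM in the other groups. In the mesoderm libraries the mesoderm genes HAND1, BMP4 and TBX3 were abundant, TBXT had 1 read, and MIXL1, FOXF1 and MESP1 were at 0. All 11 amnion and trophoblast genes listed passed the test as higher in mesoderm than in hPSC. Their summed level was 6927 to 7554 CPM there and 19.6 to 85.5 CPM in the other groups, and their part in any mesoderm result below was not tested.

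A snoRNA is released from the intron of its host after splicing, is bound by fibrillarin or dyskerin complexes and guides the modification of ribosomal RNA. A miRNA begins as a hairpin that the nuclease Drosha cuts out of the host RNA, and its bases 2 to 8, the seed, pair with target messages. Many snoRNA host transcripts start with a run of pyrimidines like those of ribosomal protein genes, and their spliced RNA is a known substrate of nonsense-mediated decay. The miR-302 family is the most abundant miRNA family of human pluripotent cells and helps to hold them in that state.

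The host of that family, MIR302CHG, carries 5 hairpins. Their mature 3p miRNAs are shown with the seed in capitals, as RefSeq gives them on GRCh38.p14, because the 4 miR-302 copies share 1 seed and miR-367 has another.
hsa-miR-302b-3p: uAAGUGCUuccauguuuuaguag
hsa-miR-302c-3p: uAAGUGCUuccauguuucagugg
hsa-miR-302a-3p: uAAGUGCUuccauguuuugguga
hsa-miR-302d-3p: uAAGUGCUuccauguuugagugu
hsa-miR-367-3p: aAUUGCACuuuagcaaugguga
The hairpins lie in the order shown, from 5′ to 3′, and the hairpin of MIR302B spans chr4:112648485-112648557 and that of MIR367 chr4:112647874-112647941, both on the minus strand of GRCh38.

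Summed over all 57 genes, host transcripts were most abundant in hPSC, at 2977 and 2712 CPM. Ectoderm had 2388 and 2127 CPM, endoderm 1978 and 1784 CPM, and mesoderm 1184 and 1429 CPM, so by library totals no 2 groups overlapped. All sums here use library totals, unlike the fold changes below. For ectoderm against endoderm, library totals moved the median log2 fold change of all genes by 0.75. The order of these 2 groups therefore holds for library totals only. The snoRNA hosts summed to 1792 ± 42.4 CPM in hPSC and 1476 ± 72.2 in ectoderm, with 1190 ± 41.9 in endoderm and 1163 ± 186 in mesoderm (mean ± SD, n = 2 each). The miRNA hosts summed to 1052 ± 230.2 CPM in hPSC and 144 ± 12.4 in mesoderm (mean ± SD, n = 2 each), with ectoderm (782 ± 113) and endoderm (691 ± 94.7) between them. MIR302CHG made up most of that sum in every group but mesoderm. In bulk samples, fewer cells of a type and less RNA per cell cannot be told apart.

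**Figure D1:**
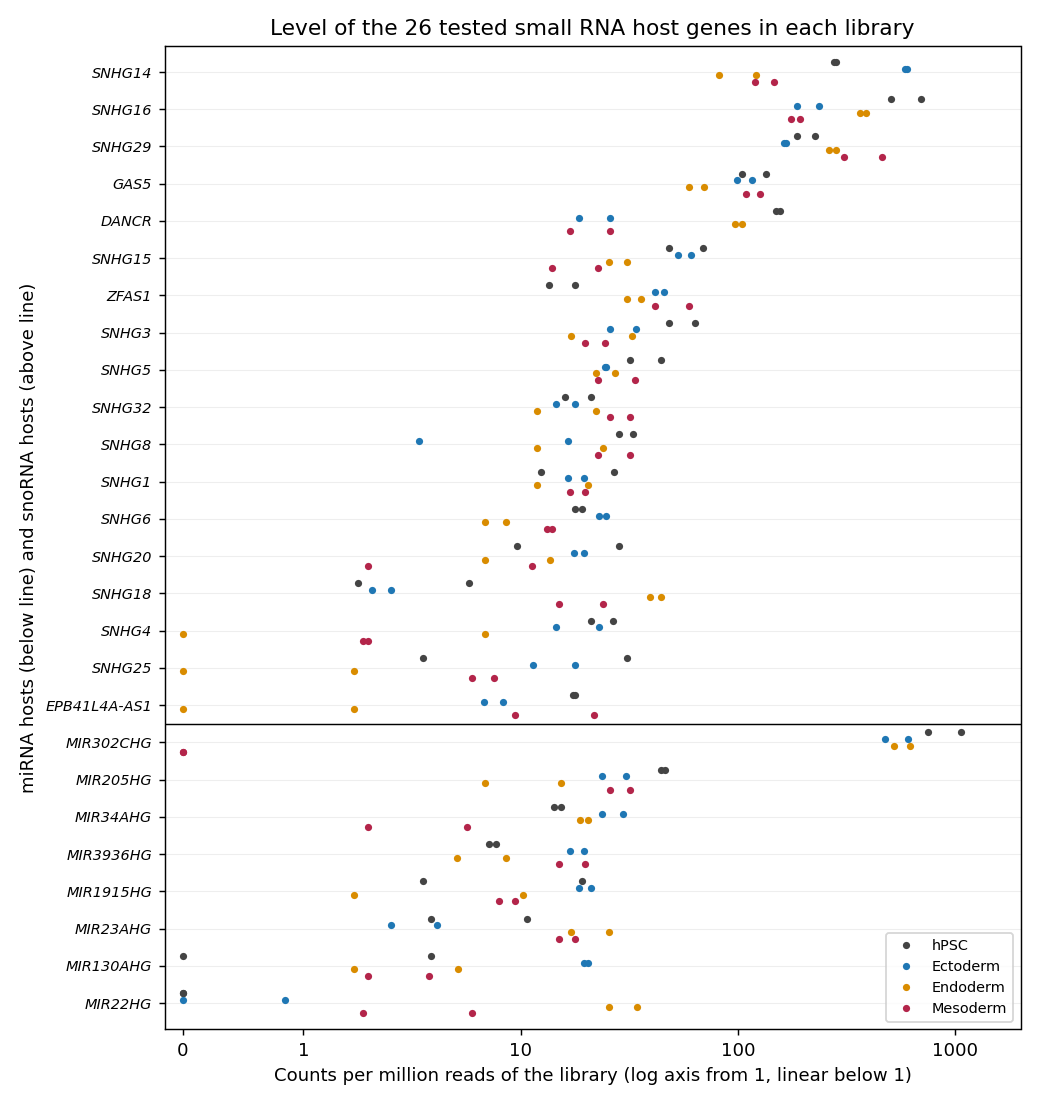
Level of each of the 26 tested host genes in every library, in CPM on an axis that is logarithmic from 1 and linear below 1, with 1 point per library and colours for the 4 groups. MIR302CHG is at 0 in both mesoderm libraries and at 475 to 1061 in the other 6, and DANCR splits into hPSC and endoderm above 97 and ectoderm and mesoderm below 26.

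MIR302CHG had 551 and 420 reads in hPSC (1061 and 747 CPM), 720 and 459 in ectoderm (609.7 and 475 CPM), 363 and 307 in endoderm (619.9 and 524 CPM), and 0 in both mesoderm libraries. By CPM both hPSC libraries lay above all others, ectoderm and endoderm overlapped, and mesoderm had none. In the edgeR fit, which scales the libraries otherwise than CPM, MIR302CHG was lower in ectoderm than in endoderm (log2 fold change -0.83 ± 0.30, adjusted p = 0.023). The gene was at least 309.8-fold lower in mesoderm than in hPSC, counted over the group against a floor of 3 reads (adjusted p = 6.9e-08), and this call held under all 19 alternative analyses (adjusted p from 6.97e-60 to 3.36e-05). In ectoderm it fell by 1.14 ± 0.30 (SE) on the log2 scale (adjusted p = 0.0056), while endoderm, where part of the pluripotency markers also kept reads, had a log2 fold change of -0.31 ± 0.29 (adjusted p = 0.47). The part of these markers' cells in this value, and in those of DANCR and SNHG16 below, was not tested. The ectoderm call was lost without ectoderm repeat 2 (-0.81, adjusted p = 0.119) and its direction turned when a trend with transcript length was removed from each library (0.34, adjusted p = 0.404). Over its 19 alternatives the adjusted p ran from 0.000242 to 0.404.

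MIR302CHG (ENSG00000249532.6) spans chr4:112646719-112648740 on the minus strand, inside LARP7, which runs the other way. LARP7, which encodes a binding protein of the 7SK small nuclear RNA, had 12 and 8 reads in hPSC, 77 and 49 in the ectoderm libraries, 9 and 4 in endoderm and 6 and 15 in mesoderm. It therefore kept reads in the libraries where MIR302CHG had none. Whether the counting used strand is not given in the sources used here, so unspliced reads of the 2 genes cannot be told apart with certainty.

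The transcripts of MIR302CHG differed between groups as well as their sum. A 3-exon form of 390 nt led in hPSC with 53.4% and 44.5% of the gene's reads, and held 14.9% and 14.6% in the ectoderm libraries and 16.5% and 22.8% in endoderm. A 2-exon form of 296 nt held 27.4% and 22.4% in hPSC, 58.2% and 57.5% in the ectoderm libraries and 29.5% and 25.4% in endoderm. An unspliced form of 1982 nt, the only one with the hairpins in an exon, held 13.3% and 27.4% in hPSC, 21.7% and 24.4% in the ectoderm libraries and 48.5% and 46.9% in endoderm. Ectoderm and endoderm thus each led with a different form from hPSC, the 2-exon form in ectoderm and the unspliced form in endoderm, while mesoderm had no reads of any form. In the 2-exon and 3-exon forms that span them, all 5 hairpins lie in an intron.

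Transcript choice was tested within genes that had at least 2 tested transcripts, which left 5 host genes: MIR302CHG, SNHG14, SNHG16, SNHG29 and GAS5. Over all 2638 genes tested in this way, 5.8% changed in ectoderm, 4.93% in endoderm and 6.97% in mesoderm. MIR302CHG changed in ectoderm (adjusted p = 0.0019) and in endoderm (adjusted p = 0.0091), and in mesoderm it had no reads to test. Relative to the other forms, the 3-exon form shifted by -1.74 on the log2 scale in ectoderm and -1.34 in endoderm, the 2-exon form by 1.197 in ectoderm and 0.14 in endoderm, and the unspliced form by 0.22 in ectoderm and 1.29 in endoderm. The ectoderm call was lost without ectoderm repeat 1 (adjusted p = 0.0822) or 2 (0.165), and ranged from 1.22e-09 to 0.165 over the alternatives. The endoderm call was lost without endoderm repeat 1 (adjusted p = 0.311) or 2 (0.152), with spliced transcripts alone (0.16) and by the Simes test (0.0801), and ranged from 3.08e-09 to 0.311.

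**Figure D2:**
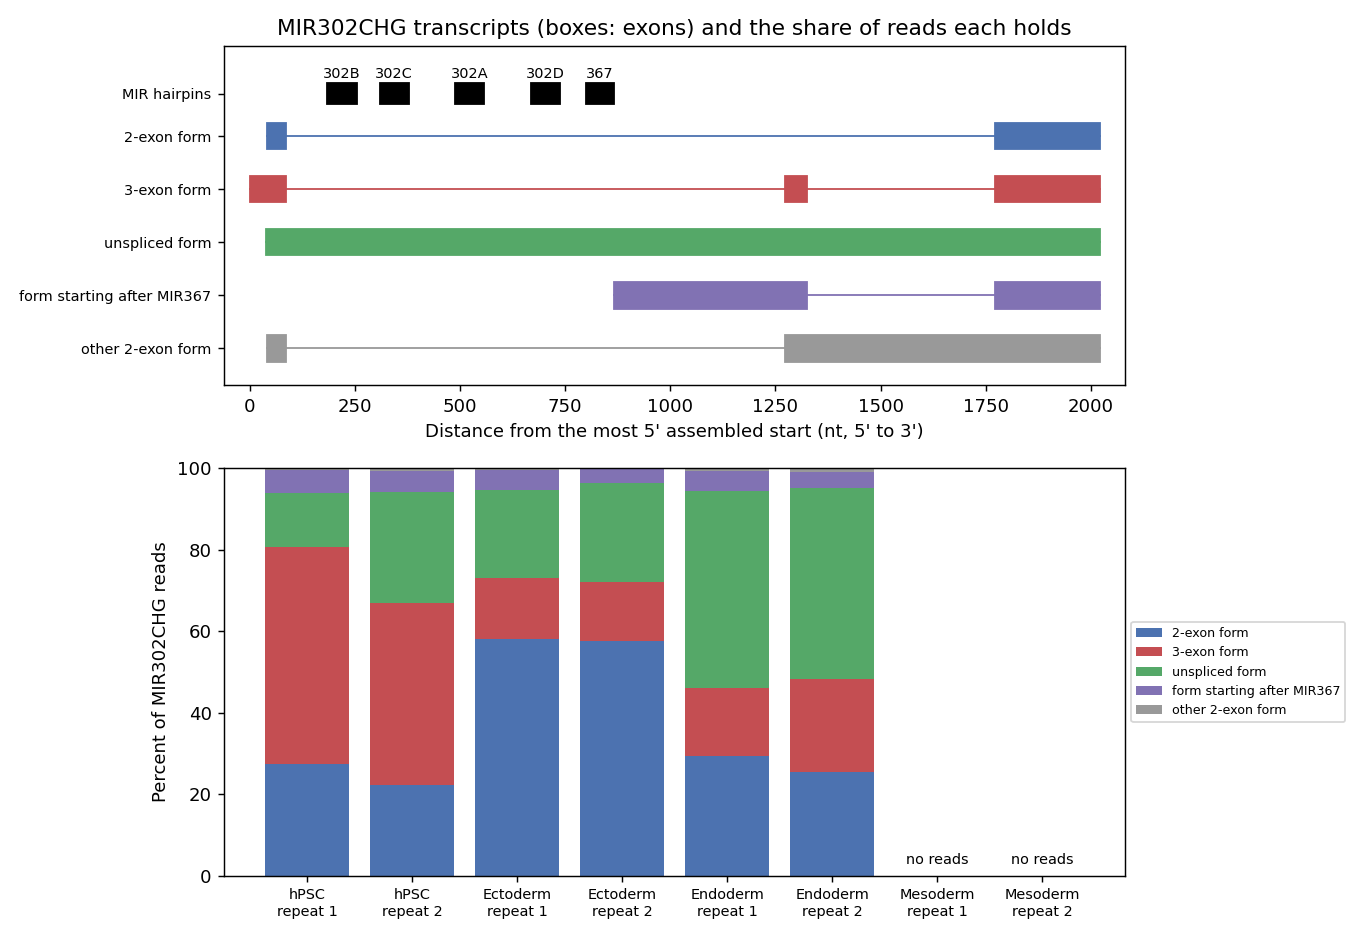
Top, exons (boxes) of the 5 assembled MIR302CHG transcripts and the 5 miRNA hairpins along the distance in nt from the most 5′ assembled start; bottom, the percentage of the gene's reads held by each transcript in each library. The 3-exon form holds 44.5% to 53.4% in hPSC, the 2-exon form 57.5% to 58.2% in ectoderm, the unspliced form 46.9% to 48.5% in endoderm, and both mesoderm libraries have no reads.

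A further MIR302CHG form began 3 nt past the last base of miR-367-3p, the last mature miRNA of the cluster. It held 31 and 21 reads in hPSC, 36 and 16 in the ectoderm libraries, 18 and 12 in endoderm and 0 in mesoderm. Its share was 3.49% to 5.63% in the 6 libraries with reads. The same kind of 5′ end occurred in 4 other host genes. Each of these assembled transcripts started 2 or 3 nt after the last mature miRNA of its locus: MIR17HG after miR-92a-3p, MIR23AHG after miR-24-3p, MIR34AHG after miR-34a-3p and MIR222HG after miR-221-3p. The miRNAs just upstream of these ends are shown from RefSeq with the seed in capitals.
hsa-miR-92a-3p: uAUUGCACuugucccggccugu
hsa-miR-24-3p: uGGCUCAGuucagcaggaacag
hsa-miR-34a-3p: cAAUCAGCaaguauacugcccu
hsa-miR-221-3p: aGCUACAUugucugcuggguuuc
The seed of miR-92a-3p is the same as that of miR-367-3p.

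The 5 transcripts held 262 reads. MIR17HG, host of the miR-17-92 cluster, was represented by this one alone, with 7 and 5 reads in hPSC, 20 and 12 in the ectoderm libraries, 0 in either endoderm library and 9 and 9 in mesoderm, too few for the test. In the whole assembly 65 transcripts had a 5′ end within 10 nt of such a miRNA end, against 124 at 11 to 100 nt, and 52 of the 65 lay 1 to 3 nt past it. Such ends are therefore not limited to the host genes taken here by name. The 5′ ends are those of the assembly, and what makes them was not tested.

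**Figure D3:**
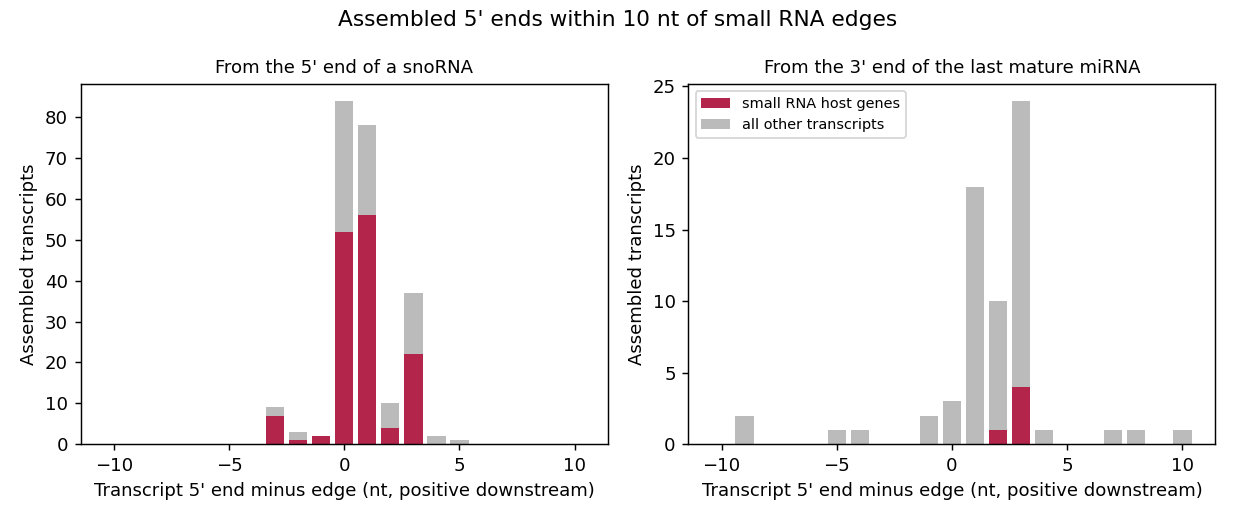
Number of assembled transcripts whose 5′ end lies within 10 nt of the 5′ end of a snoRNA (left) or of the 3′ end of the last mature miRNA of a hairpin (right), by offset in nt, with host gene transcripts in red and all others in grey. The left peak lies at 0 and 1 nt and the right peaks at 1 and 3 nt, where 4 of the 5 host transcripts sit at 3 nt.

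The other miRNA hosts had far fewer reads. MIR22HG (chr17:1711494-1716274, minus strand), which carries miR-22 in an exon, had 0 reads in both hPSC libraries, 1 and 0 in the ectoderm libraries, 20 and 15 in endoderm (34.2 and 25.6 CPM) and 1 and 3 in mesoderm. It was thus seen mainly in endoderm, and it had enough reads for the test only with its endoderm libraries. It was at least 10.8-fold higher in endoderm than in hPSC against a floor of 3 reads over the group (adjusted p = 0.00023), and it was called under all 18 alternatives that could test it (adjusted p from 9.6e-09 to 0.0129).

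MIR23AHG (chr19:13834508-13842928, minus strand), host of the miR-23a, miR-27a and miR-24-2 cluster, had 2 and 6 reads in hPSC (3.85 and 10.7 CPM), 3 and 4 in the ectoderm libraries, 15 and 10 in endoderm (25.6 and 17.1 CPM) and 8 and 9 in mesoderm. Endoderm was above hPSC in both libraries, by 1.83 ± 0.59 (SE) on the log2 scale (adjusted p = 0.032). That call was lost in 6 of 8 fits that left out 1 library, with adjusted p up to 0.239 and a change of 1.15 without hPSC repeat 1. Its change was 2.91 without hPSC repeat 2. The unspliced transcript that began 2 nt after miR-24-3p held 15 and 8 of the endoderm reads and 1 and 4 of the hPSC reads. No assembled transcript of MIR23AHG had a hairpin of the cluster wholly in an exon or in an intron. The values are thus mainly those of RNA downstream of the miRNAs.

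MIR130AHG (chr11:57638376-57654828, plus strand), host of miR-130a, had 2 and 0 reads in hPSC, 24 and 19 in ectoderm (20.3 and 19.6 CPM), 3 and 1 in endoderm and 2 and 1 in mesoderm. Ectoderm stood above every other library, and the gene had enough reads for the test only with its ectoderm libraries. The assembled transcript that spans MIR130A, in an intron, held 7 and 7 of the ectoderm reads. The leading form (11 and 6 ectoderm reads) and a further form (6 and 6) began downstream of the hairpin. Pooled over repeats, ectoderm was 10.8-fold higher than hPSC, with a 95% exact conditional binomial interval of 2.82 to 92.2 that covers counting error only, and edgeR gave a log2 fold change of 2.91 ± 0.79 (adjusted p = 0.0072). The call was lost without hPSC repeat 2 (2.12, adjusted p = 0.0618), ectoderm repeat 1 (0.0593) or ectoderm repeat 2 (0.0534), and the change was 6.57 without hPSC repeat 1. It was also lost when reads assembled under MIR130A itself were added to its host (1.35, adjusted p = 0.0546), and over all its alternatives adjusted p ran from 0.00144 to 0.103.

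MIR205HG (chr1:209428817-209432839, plus strand), host of miR-205, had 23 and 26 reads in hPSC (44.3 and 46.3 CPM), 36 and 23 in ectoderm (30.5 and 23.8 CPM), 9 and 4 in endoderm (15.4 and 6.82 CPM) and 17 and 13 in mesoderm (32.0 and 25.8 CPM). Both hPSC libraries lay above the other 6. It fell by 1.15 ± 0.36 in ectoderm (adjusted p = 0.015) and by 1.69 ± 0.46 in endoderm (adjusted p = 0.013), while mesoderm had -0.88 ± 0.39 (adjusted p = 0.096; log2 scale, SE). The ectoderm change was 0.01 with the length trend removed (adjusted p = 0.992), and the call was lost without hPSC repeat 2 (0.0811) or ectoderm repeat 1 (0.078) or 2 (0.202). The endoderm call was lost without endoderm repeat 2 (adjusted p = 0.156) and with reference-matching transcripts alone (-0.96, 0.196).

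MIR34AHG (chr1:9148011-9182370, minus strand), host of the p53-induced miR-34a, was the remaining miRNA host called against hPSC. It had 8 and 8 reads in hPSC, 35 and 23 in the ectoderm libraries, 12 and 11 in endoderm and 3 and 1 in mesoderm, and it fell by 2.12 ± 0.69 (SE, log2 scale) in mesoderm (adjusted p = 0.026). Without hPSC repeat 2 (adjusted p = 0.0695), mesoderm repeat 1 (0.055) or mesoderm repeat 2 (0.186, with a change of -1.52) the call was lost, and with reference-matching transcripts alone the change was -3.30. MIR1915HG and MIR3936HG were tested and not called in any comparison with hPSC, with log2 fold changes from -0.56 to 0.99.

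For MIR22HG, MIR23AHG, MIR205HG and MIR34AHG, 4 of the 6 miRNA hosts called against hPSC, miRNAs not yet shown are given from RefSeq with the seed in capitals. These 5 seeds differ from each other and from those above.
hsa-miR-22-3p: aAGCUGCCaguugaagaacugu
hsa-miR-23a-3p: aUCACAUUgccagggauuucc
hsa-miR-27a-3p: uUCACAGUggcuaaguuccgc
hsa-miR-205-5p: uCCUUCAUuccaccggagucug
hsa-miR-34a-5p: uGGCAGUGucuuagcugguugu

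Over all 26 tested host genes, 2 were higher and 9 lower in ectoderm than in hPSC, where 23.8% and 24.8% of all 10847 tested genes were. In endoderm 4 were higher and 5 lower, against 13.4% and 13.7% of all genes, and in mesoderm 2 were higher and 8 lower, against 17.0% and 18.2%. The median log2 fold change of the host genes was -0.59 in ectoderm, -0.34 in endoderm and -0.61 in mesoderm, beside -0.01, -0.13 and 0.01 over all genes tested. The 3 comparisons share the hPSC libraries, and a gene could enter the test through reads in any 1 group. Of the hosts called against hPSC, MIR22HG and SNHG18 had enough reads only with their endoderm libraries, MIR130AHG only with ectoderm and SNHG4 only with hPSC. SNHG25 reached the test only through hPSC repeat 1 and ectoderm repeat 1. EPB41L4A-AS1 did so only through hPSC repeat 2 and mesoderm repeat 2, and MIR23AHG only through endoderm repeat 1 and mesoderm repeat 2. Of the 26, ZFAS1 was called in all 3 comparisons, 9 in 2 of them, 9 in 1 and 7 in none. The same split over all genes tested was not counted. Scaling to the library total alone gave 4 higher and 4 lower in ectoderm and 2 higher and 8 lower in endoderm, and it moved the median of all genes by 0.41 in ectoderm, -0.33 in endoderm and 0.23 in mesoderm. With the length trend removed, ectoderm had 3 higher and 4 lower and the host median was 0.32, and mesoderm had 4 higher and 8 lower. The 11 calls in ectoderm became 4 without ectoderm repeat 1 and 3 without ectoderm repeat 2. The 9 in endoderm became 5 and 3 without endoderm repeats 1 and 2 and 6 without mesoderm repeat 2, and the 10 in mesoderm became 4 without mesoderm repeat 2. DESeq2 did not call EPB41L4A-AS1, MIR130AHG, MIR205HG, MIR23AHG, MIR34AHG, SNHG25, SNHG29, SNHG3, SNHG5 or ZFAS1 in any layer against hPSC where edgeR did, nor SNHG18 in mesoderm or SNHG4 in endoderm. With library totals the calls of EPB41L4A-AS1, MIR205HG, SNHG29, SNHG3 and SNHG5 in ectoderm and of MIR23AHG and ZFAS1 in endoderm were lost.

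**Figure D4:**
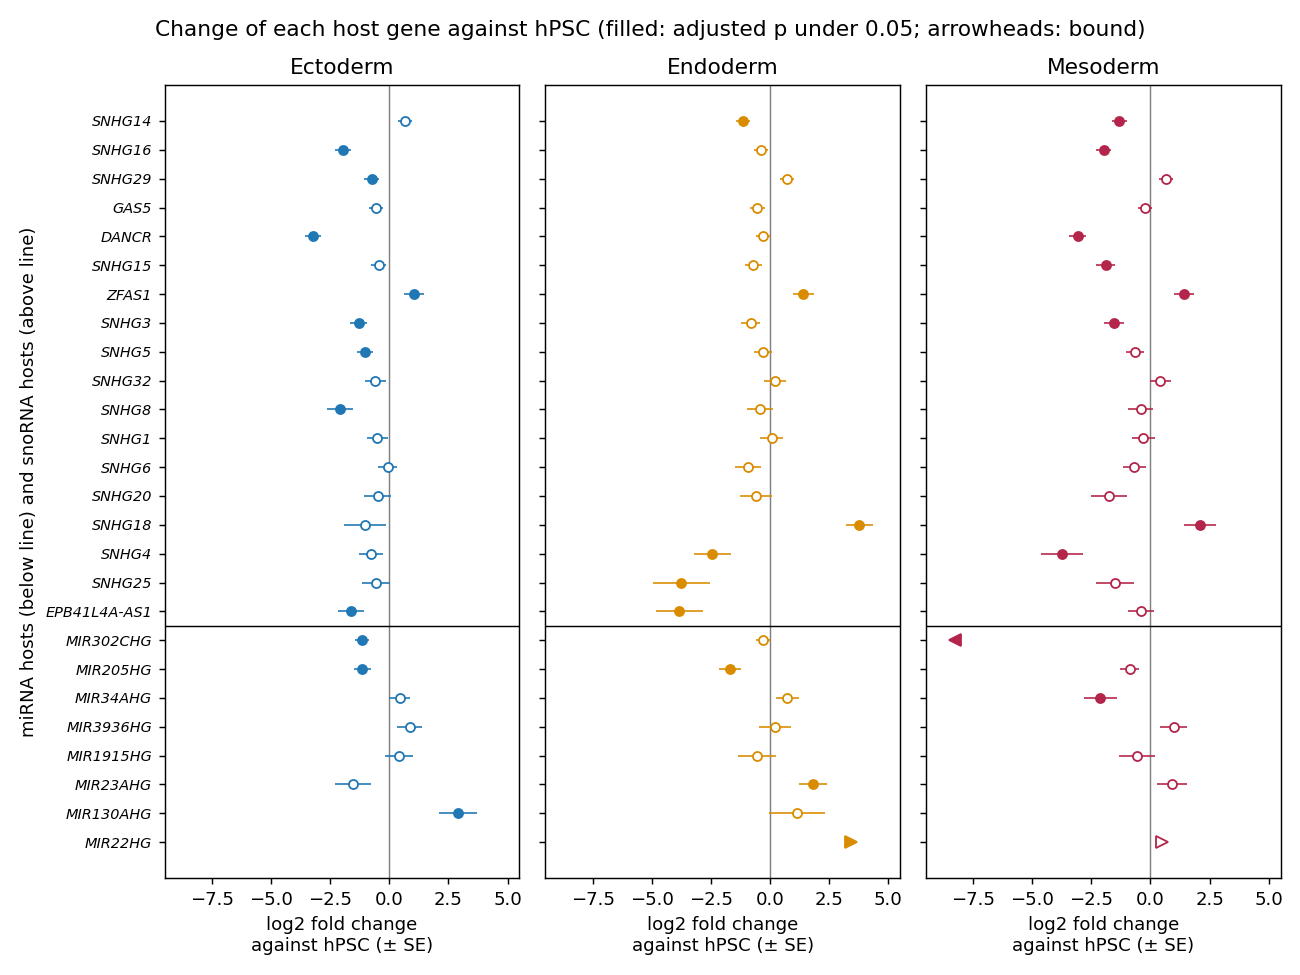
Fitted log2 fold change against hPSC (points, with SE bars) of each tested host gene in ectoderm, endoderm and mesoderm; filled points passed an adjusted p of 0.05, arrowheads are bounds for groups with no read in either library, and pairs with at most 3 reads in both groups are not drawn. ZFAS1 is filled to the right in all 3 panels, and DANCR and SNHG16 are filled to the left in ectoderm and mesoderm only.

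Among the 18 tested snoRNA hosts, DANCR and SNHG16 were called lower in both ectoderm and mesoderm under every alternative run. DANCR (chr4:52712394-52721683, plus strand), a noncoding RNA first described as a block on differentiation and the host of SNORA26, had 78 and 88 reads in hPSC (150.2 and 157 CPM), 22 and 25 in ectoderm (18.6 and 25.9 CPM), 61 and 57 in endoderm (104 and 97.2 CPM) and 9 and 13 in mesoderm (16.9 and 25.8 CPM). The 4 hPSC and endoderm libraries lay far above the 4 ectoderm and mesoderm libraries. DANCR fell by 3.22 ± 0.34 in ectoderm (adjusted p = 5.6e-06) and by 3.08 ± 0.37 in mesoderm (adjusted p = 1.6e-05), while endoderm had -0.28 ± 0.30 (adjusted p = 0.53; log2 scale, SE). Both calls held under all 19 alternatives, with adjusted p up to 0.000966 in ectoderm and 0.00257 in mesoderm. With the length trend removed the ectoderm change was -1.99, its smallest size. Ectoderm also differed from endoderm (-2.94 ± 0.34, adjusted p = 4.9e-06), and so did endoderm from mesoderm (2.80 ± 0.38, adjusted p = 3.7e-05).

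SNHG16 (chr17:76557725-76565357, plus strand), host of the SNORD1 snoRNAs, had 263 and 391 reads in hPSC (506 and 696 CPM), 279 and 181 in the ectoderm libraries (236 and 187 CPM), 227 and 213 in endoderm (388 and 363 CPM) and 93 and 97 in mesoderm (175 and 192 CPM). It showed the same order of groups as DANCR, with hPSC and endoderm above ectoderm and mesoderm. It fell by 1.96 ± 0.32 in ectoderm (adjusted p = 0.00021) and by 1.98 ± 0.33 in mesoderm (adjusted p = 0.00031), and endoderm had -0.38 ± 0.31 (adjusted p = 0.41; log2 scale, SE). Both calls held under all 19 alternatives. Its leading transcripts did not pass the test of transcript choice in any layer.

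SNHG3 (chr1:28505980-28510892, plus strand), host of the SNORA73 snoRNAs, had 33 and 27 reads in hPSC, 40 and 25 in the ectoderm libraries, 10 and 19 in endoderm and 13 and 10 in mesoderm (63.6 and 48.0, 33.9 and 25.9, 17.1 and 32.4, and 24.5 and 19.9 CPM). Both hPSC libraries were above all others. It fell by 1.30 ± 0.36 in ectoderm (adjusted p = 0.0075) and by 1.54 ± 0.41 in mesoderm (adjusted p = 0.0091), with -0.82 ± 0.40 in endoderm (adjusted p = 0.14; log2 scale, SE). The ectoderm call was lost without ectoderm repeat 1 (adjusted p = 0.0505) or 2 (0.145) and with the length trend removed (-0.53, 0.247). The mesoderm call was lost without mesoderm repeat 1 (0.0606) or 2 (0.104).

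SNHG4 (chr5:139274102-139288066, plus strand), host of the SNORA74 snoRNAs, had 11 and 15 reads in hPSC (21.2 and 26.7 CPM), 27 and 14 in ectoderm (22.9 and 14.5 CPM), 0 and 4 in endoderm and 1 and 1 in mesoderm. The hPSC and ectoderm libraries were clear of the others. Pooled over repeats it was 12.4-fold lower in mesoderm than in hPSC (95% interval 3.12 to 108), and edgeR gave -3.75 ± 0.88 (adjusted p = 0.0041) there and -2.44 ± 0.78 (adjusted p = 0.03) in endoderm. The mesoderm call was lost without mesoderm repeat 1 (adjusted p = 0.0585) or 2 (0.0568). The endoderm call was lost in 6 of 8 fits that left out 1 library (adjusted p up to 0.253, without endoderm repeat 1), with changes from -7.21 to -1.35.

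EPB41L4A-AS1 (chr5:112160834-112164848, plus strand), host of SNORA13, had 9 and 10 reads in hPSC (17.3 and 17.8 CPM), 8 and 8 in ectoderm (6.78 and 8.27 CPM), 1 and 0 in endoderm and 5 and 11 in mesoderm (9.41 and 21.8 CPM). Endoderm was lowest. Pooled over repeats, endoderm was 20.6-fold lower than hPSC (95% interval 3.27 to 856), with an edgeR log2 fold change of -3.84 ± 1.00 (adjusted p = 0.01). In ectoderm it fell by 1.63 ± 0.55 (SE, adjusted p = 0.023). The endoderm call was lost without endoderm repeat 2 (-2.90, adjusted p = 0.124), its change was -6.75 without endoderm repeat 1, and the ectoderm call was lost in 6 of 8 fits that left out 1 library (adjusted p up to 0.203, without ectoderm repeat 1).

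SNHG25 (chr17:64145970-64146476, plus strand), which holds SNORA50C in its exon, had 16 and 2 reads in hPSC, 21 and 11 in the ectoderm libraries, 0 and 1 in endoderm and 4 and 3 in mesoderm. Its hPSC libraries differed widely, at 30.8 and 3.56 CPM. The pooled ratio of hPSC to endoderm was 19.5 (95% interval 3.08 to 813), and edgeR gave -3.74 ± 1.22 for endoderm (adjusted p = 0.032). Without hPSC repeat 1 the change was -1.75 (adjusted p = 0.528), without endoderm repeat 2 it was -6.67, and of the 8 fits that left out 1 library only the one without hPSC repeat 2 kept the call.

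SNHG8 (chr4:118278706-118280787, plus strand), host of SNORA24, had 17 and 16 reads in hPSC (32.7 and 28.5 CPM), 4 and 16 in ectoderm (3.39 and 16.5 CPM), 7 and 14 in endoderm and 12 and 16 in mesoderm. It fell by 2.09 ± 0.56 (SE, log2 scale) in ectoderm (adjusted p = 0.0064). The 2 ectoderm libraries lay far apart: the change was -1.16 without ectoderm repeat 1 (adjusted p = 0.123) and -3.35 without ectoderm repeat 2. With the length trend removed it was -0.70 (adjusted p = 0.347).

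The remaining falls among snoRNA hosts were in SNHG5 and SNHG29 in ectoderm and SNHG15 in mesoderm. SNHG15 had 36 and 27 reads in hPSC (69.32 and 48.04 CPM) and 72 and 51 in the ectoderm libraries (60.97 and 52.73 CPM). Endoderm had 15 and 18 reads (25.62 and 30.71 CPM) and mesoderm 12 and 7 (22.59 and 13.89 CPM). SNHG15 fell by 1.88 ± 0.40 in mesoderm (adjusted p = 0.0021), a call lost without mesoderm repeat 2. SNHG5, host of the SNORD50 snoRNAs, fell by 1.03 ± 0.35 (adjusted p = 0.024), and SNHG29, host of SNORD49A and SNORD65, fell by 0.75 ± 0.30 (adjusted p = 0.047; log2 scale, SE). The SNHG5 call was lost under 12 of 19 alternatives, 7 of them fits without 1 library (adjusted p up to 0.178, without ectoderm repeat 2). The SNHG29 call was lost under 16, and its direction turned with the length trend removed (0.56, adjusted p = 0.157).

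ZFAS1 was the one host gene that rose in every layer. ZFAS1 (chr20:49278612-49289260, plus strand), antisense to the start of ZNFX1 and host of the SNORD12 snoRNAs, had 7 and 10 reads in hPSC (13.5 and 17.8 CPM), 54 and 40 in ectoderm (45.7 and 41.4 CPM), 18 and 21 in endoderm (30.7 and 35.8 CPM) and 22 and 30 in mesoderm (41.4 and 59.5 CPM). Every differentiated library was above both hPSC libraries. The log2 fold change was 1.04 ± 0.41 in ectoderm (adjusted p = 0.048), 1.41 ± 0.44 in endoderm (adjusted p = 0.028) and 1.43 ± 0.43 in mesoderm (adjusted p = 0.017), each with its SE. All 3 calls were lost without hPSC repeat 1, at 0.68, 1.07 and 1.08 (adjusted p = 0.246, 0.12 and 0.0739). They were also lost without ectoderm repeat 1 (0.112) or 2 (0.0713), endoderm repeat 1 (0.0531) or 2 (0.117), and mesoderm repeat 2 (0.109). DESeq2 called none of the 3 (0.18, 0.111 and 0.0877), the ectoderm call was lost with the replicate block (0.0522) and the endoderm call with library totals (0.0703). Over all alternatives the adjusted p ran from 0.00813 to 0.246 in ectoderm, 0.00977 to 0.12 in endoderm and 0.00773 to 0.109 in mesoderm.

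SNHG18 (chr5:9546224-9550493, plus strand), host of SNORD123, had 3 and 1 reads in hPSC (5.78 and 1.78 CPM), 3 and 2 in ectoderm (2.54 and 2.07 CPM), 23 and 26 in endoderm (39.3 and 44.4 CPM) and 8 and 12 in mesoderm (15.1 and 23.8 CPM). The groups fell into a clear order, with endoderm first, mesoderm next, and hPSC and ectoderm together at the bottom. Without its endoderm libraries the gene had too few reads for the test. SNHG18 rose by 3.78 ± 0.57 in endoderm (adjusted p = 0.00018) and by 2.11 ± 0.68 in mesoderm (adjusted p = 0.025), and ectoderm had -1.02 ± 0.90 (adjusted p = 0.36; log2 scale, SE). The endoderm call held under all 19 alternatives, with changes from 3.32 to 4.62, the latter without hPSC repeat 1. The mesoderm call was lost without hPSC repeat 2 (1.63, adjusted p = 0.126) or mesoderm repeat 2 (1.82, 0.148), and the change was 2.93 without hPSC repeat 1.

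SNHG14 had the second most reads of all hosts. It is the long transcription unit downstream of SNURF-SNRPN in the imprinted Prader-Willi region and carries the SNORD116 array. It had 147 and 156 reads in hPSC (283 and 278 CPM), 695 and 581 in the ectoderm libraries (589 and 601 CPM), 71 and 48 in endoderm (121 and 81.9 CPM) and 64 and 74 in mesoderm (120.5 and 147 CPM). Ectoderm was above hPSC in both libraries and endoderm and mesoderm were below it. SNHG14 fell by 1.14 ± 0.31 in endoderm (adjusted p = 0.013) and by 1.31 ± 0.31 in mesoderm (adjusted p = 0.0041), and its log2 fold change in ectoderm was 0.65 ± 0.29 (SE, adjusted p = 0.073). The endoderm call was lost without endoderm repeat 2 (-0.83, adjusted p = 0.171) and the mesoderm call without mesoderm repeat 1 (-1.10, 0.0674). With reference-matching transcripts alone the changes were -1.98 and -2.26. Ectoderm was above endoderm by 1.79 ± 0.31 (adjusted p = 0.00014) and above mesoderm by 1.96 ± 0.31 (adjusted p = 0.00017).

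The reads of SNHG14 were spread over 181 assembled transcripts between 24978583 and 25132900 on chromosome 15, plus strand. The leading one, a 3-exon transcript of 11177 nt over SNORD107, SNORD64 and SNORD108, held 27.2% and 28.8% of the reads in hPSC, 8.49% and 5.68% in the ectoderm libraries, 15.5% and 8.33% in endoderm and 12.5% and 17.6% in mesoderm. SNHG14 changed its transcript choice in ectoderm (adjusted p = 0.0039), where this transcript shifted by -1.03 on the log2 scale against the other 2 tested. A 42-exon transcript of 8246 nt shifted by 2.80, with 0 and 3 reads in hPSC and 29 and 19 in ectoderm. The call was lost without ectoderm repeat 1 (adjusted p = 0.0733) or 2 (0.294), by the Simes test (0.0533) and with 105 transcripts tested (0.223). It ranged from 0.000171 to 0.294 over the alternatives.

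Most SNHG14 transcripts began at a snoRNA. Of the 181, 141 had their 5′ end within 3 nt of the 5′ end of a snoRNA: 70 at SNORD109A, 63 at a copy of SNORD116, 6 at SNORD107 and 2 at SNORD64. Those at SNORD109A held 40 and 34 reads in hPSC, 271 and 253 in the ectoderm libraries, 7 and 9 in endoderm and 15 and 12 in mesoderm. That was 27.2% and 21.8% of SNHG14 reads in hPSC, 39.0% and 43.6% in the ectoderm libraries, 9.86% and 18.8% in endoderm and 23.4% and 16.2% in mesoderm. Ectoderm had the highest share in both libraries. Those at SNORD116 copies held 21.6% to 43.8% in the 8 libraries, with endoderm highest at 38.0% and 43.8%. The transcripts behind all reads were longest on average in ectoderm (4406 and 4650 nt) and shortest in endoderm (3073 and 2975 nt). The part of length in these shares was not tested.

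Outside SNHG14, 3 further host transcripts, of SNHG1 and SNHG7, began at a snoRNA. In the whole assembly 226 transcripts started within 10 nt of a snoRNA 5′ end and 8 at 11 to 100 nt, while 4 started within 10 nt of a snoRNA 3′ end. Another 60 transcripts in the span and on the strand of SNHG14 were listed under a snoRNA's own name and so not counted for it. They held 78 and 96 reads in hPSC, 225 and 181 in the ectoderm libraries, 20 and 28 in endoderm and 35 and 28 in mesoderm, in the same order of levels between groups as SNHG14. Adding such reads to every host left the number of called hosts within 1.5 times in all 6 comparisons. SNORD116 copies are near-identical, so reads within the array are uncertain as to copy.

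GAS5, a transcript named for its rise at growth arrest, with 11 snoRNAs in its span, was among the 7 tested hosts that no comparison with hPSC called. It had 70 and 59 reads in hPSC (134.8 and 105 CPM) and 137 and 96 in the ectoderm libraries (116 and 99.25 CPM). Endoderm had 35 and 41 reads (59.77 and 69.94 CPM) and mesoderm 58 and 64 (109.2 and 127 CPM). The log2 fold changes of GAS5 were -0.57, -0.54 and -0.25 in ectoderm, endoderm and mesoderm. SNHG1, SNHG6, SNHG20 and SNHG32 were the other snoRNA hosts not called. Their log2 fold changes lay between -1.74 (SNHG20 in mesoderm) and 0.41 (SNHG32 in mesoderm). With 2 libraries a group, a p above the threshold does not show that these genes kept their level.

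Between layers, 11 of 26 host genes differed between ectoderm and endoderm (63.1% of all genes did), 10 between ectoderm and mesoderm (35.5%) and 8 between endoderm and mesoderm (47.1%). Endoderm was the higher of the 2 in 7 of the 8 differences from mesoderm: DANCR, MIR22HG, MIR302CHG, MIR34AHG, SNHG15, SNHG16 and SNHG18. EPB41L4A-AS1 was the exception. Over all genes tested, 2519 were higher in endoderm than in mesoderm and 2588 lower. The split of the hosts became 7 and 6 with the length trend removed and 6 and 3 with library totals. MIR22HG and SNHG18 had enough reads for the test only with their endoderm libraries. Ectoderm against endoderm had 3 hosts higher and 8 lower, beside 3593 and 3248 of all genes tested. The host split became 11 and 6 when libraries were scaled to their totals alone, since that moved the median of all genes by 0.75. With the length trend removed it was 6 and 5.

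The place of the small RNAs was read against the leading transcript of their host. Among snoRNAs within the host genes, 52 lay in an intron of the leading transcript, 8 in an exon, 1 partly in an exon and 36 outside its span. Among miRNAs these numbers were 13, 6, 2 and 10. Most of the snoRNAs outside the span were SNORD109A and SNORD116-1 to SNORD116-30 of SNHG14, whose leading transcript ended before them at position 24991753. The rest were in SNHG17 and MIR31HG. Reads whose transcript had a small RNA wholly inside an exon made up 16.1% of reads of the snoRNA hosts other than SNHG14, and 60.4% of SNHG14 reads.

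The share differed widely among hosts. It was 5.91% in SNHG16, 6.59% in SNHG29 and 53.8% in SNHG15, whose leading transcript keeps SNORA9 in an exon. In GAS5 it was 44.3% and 54.2% in hPSC, 30.7% and 29.2% in the ectoderm libraries, 37.1% and 36.6% in endoderm and 25.9% and 32.8% in mesoderm, so the hPSC libraries were the highest. In ZFAS1 it was 28.6% and 40.0% in hPSC and 33.3% and 32.5% in ectoderm, against 5.56% and 14.3% in endoderm and 18.2% and 13.3% in mesoderm. These shares have no test and rest on as few as 7 reads in a library for ZFAS1.

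**Figure D5:**
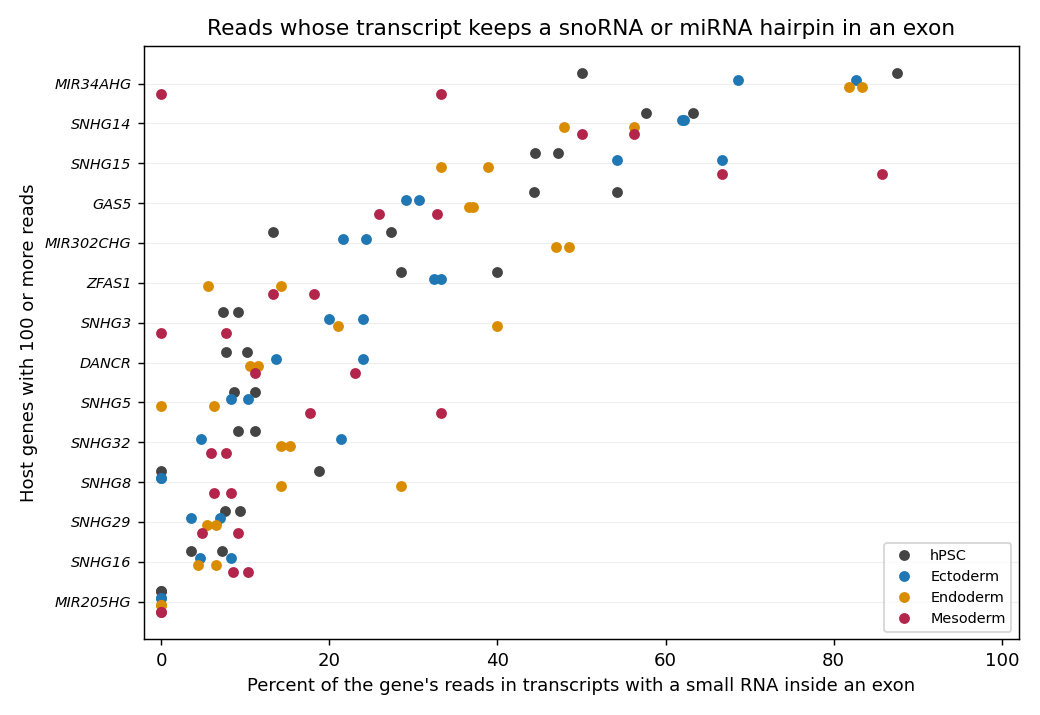
Percentage of each gene's reads that fall in assembled transcripts with a snoRNA or miRNA hairpin wholly inside an exon, 1 point per library, for host genes with 100 or more reads. MIR302CHG is highest in endoderm (46.9% to 48.5%), GAS5 in hPSC (44.3% and 54.2%), and SNHG16 and SNHG29 stay at or below 10.3% in all 8 libraries.

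Host gene starts were read from RefSeq (GRCh38.p14), which lists 49 of the 57 genes with a promoter window. In 9 of the 49 (18.4%) the start base, read on the strand of the gene, was a C followed directly by at least 4 pyrimidines (C or T), the mark of a terminal oligopyrimidine start, against 4.07% of 35116 windows in all. It was 7 of 25 among the snoRNA hosts and 2 of 24 among the miRNA hosts. In some genes the leading assembled transcript began far downstream of the RefSeq start, by 1056 nt in GAS5, 10246 nt in SNHG17 and 154975 nt in SNHG14. For such genes the base scored is not the start of that transcript. In ZFAS1 and SNHG32 the leading transcript began at -2 nt from the RefSeq start, in SNHG5 at -3 nt and in SNHG4 at 1 nt (negative upstream). The base scored was thus not its exact first base in these 4 either. The 25 bases before and after the RefSeq start are shown for these 4 tested hosts, on the strand of the gene and with the run in capitals. Their leading assembled transcripts all began within 3 nt of that start.
ZFAS1, chr20:49278617-49278666, plus strand: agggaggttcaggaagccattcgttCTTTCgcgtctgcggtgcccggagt
SNHG4, chr5:139274076-139274125, plus strand: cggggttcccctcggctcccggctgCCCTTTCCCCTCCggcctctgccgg
SNHG5, chr6:85678709-85678758, minus strand: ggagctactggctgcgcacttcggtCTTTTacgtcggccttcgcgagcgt
SNHG32, chr6:31834891-31834940, plus strand: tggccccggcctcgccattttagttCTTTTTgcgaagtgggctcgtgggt
These 4 genes did not move together: ZFAS1 was higher than hPSC in all 3 layers, SNHG4 lower in endoderm and mesoderm, SNHG5 lower in ectoderm and SNHG32 in no call. A run of these letters is a description of the sequence and not of how the gene is translated.

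Genes that act on small RNAs were set beside the hosts, with the shares of all genes called in each direction and the medians of all genes as given above. The values of all these lists are without removal of the length trend. Transcripts behind the reads were longest in ectoderm (4406 and 4650 nt on average), and the part of length in these changes was not tested. Of 11 tested core proteins and assembly factors of snoRNPs, the particles that snoRNAs form, 8 were lower in ectoderm, 2 in endoderm and 9 in mesoderm, and none was higher (medians -1.86, -0.38 and -1.57). RUVBL1 and RUVBL2, ATPases of snoRNP assembly, had the largest changes. RUVBL1 fell by 2.37 ± 0.38 in mesoderm (adjusted p = 0.0002), and RUVBL2 fell by 2.29 ± 0.34 in ectoderm (adjusted p = 9.4e-05; log2 scale, SE). Of 9 protein-coding snoRNA hosts, 5 were lower in ectoderm, 3 in endoderm and 4 in mesoderm (medians -0.99, -0.35 and -0.58). EIF4A2 fell by 2.63 ± 0.38 in endoderm and EIF4A1 by 2.28 ± 0.33 in ectoderm, both translation initiation helicases. HSPA8, a chaperone, was the one that rose, by 1.04 ± 0.34 in endoderm (adjusted p = 0.036).

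Of 17 miRNA processing genes, 7 were higher and 1 lower in ectoderm, 1 higher and 3 lower in endoderm, and 2 higher and 4 lower in mesoderm (medians 0.81, -0.80 and -0.26). DICER1, which cuts the hairpin to its mature length, rose by 3.03 ± 0.45 in ectoderm, and TARBP2, its RNA-binding partner, fell by 2.39 ± 0.35 there. LIN28B, a block on let-7 maturation, rose by 2.33 ± 0.32 in ectoderm and fell by 2.30 ± 0.52 in endoderm. Of 10 tested protein-coding miRNA hosts, 2 were higher and 1 lower in ectoderm, 1 higher and 1 lower in endoderm, and 3 higher and 1 lower in mesoderm (medians 0.42, -0.39 and 0.43). Among these, MEST, an imprinted hydrolase gene, fell by 3.12 ± 0.35 in endoderm and rose by 2.35 ± 0.30 in mesoderm. CTDSP1, a phosphatase of RNA polymerase II, rose by 3.20 ± 0.45 in endoderm, and MCM7, a subunit of the replication helicase, fell by 1.54 ± 0.33 in mesoderm. Of 13 tested genes of nonsense-mediated decay, 3 were higher in ectoderm, 3 in endoderm and 1 in mesoderm and none lower (medians 0.13, 0.32 and 0.33), led by UPF2 (2.95 ± 0.54 in ectoderm) and SMG6 (1.54 ± 0.35 in endoderm).

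The 31 untested hosts had 1 to 83 reads in all 8 libraries together (median 23). SNHG10 had the most, with 83 reads, followed by SNHG17 (68), MIR17HG (62), MIR600HG (57) and MIR4453HG (56). Both ectoderm libraries gave MIR3171HG 11 and 8 reads and MIR30DHG 3 and 5, while hPSC and endoderm had 0 of either and mesoderm 1 read of MIR3171HG. Both were named after their values were seen, and too few reads were present for a test.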

How the data were processed

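The authors deposited whole raw read counts per assembled transcript, with no normalization. The deposited endoderm columns are entered under expected counts because of their names alone; they hold whole counts, and nothing was rounded. Reads were aligned with minimap2 and assembled with StringTie on GRCh38, per the submitters' processing notes; the counter, strand use and annotation release are not given in the sources used here. Of 144 introns of host transcripts that GENCODE 29 also lists, 94.4% had the same position there.

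Counts were summed per gene over the transcripts the assembly names for it. edgeR 4.0.16 (R 4.3.3) was run with TMM, filterByExpr at a minimum count of 10, 1 quasi-likelihood fit over 8 libraries and two-sided tests with Benjamini-Hochberg adjustment at 0.05 over all 10847 genes; an SE is the fold change divided by the square root of F. Transcript choice used diffSpliceDGE. CPM uses library totals and fold changes use TMM. Pooled ratios with 1 to 3 reads in a group have 95% exact conditional binomial intervals. Small RNA positions, start windows and miRNA sequences are from RefSeq on GRCh38.p14.

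Full statistics are given for MIR302CHG, hosts called in at least 2 comparisons with hPSC, the 3 largest called changes per direction and comparison, and hosts with a changed transcript choice; other hosts named, and LARP7, were chosen after their values were seen. Alternatives were RLE factors, library totals, DESeq2 1.42.0, other filters, a repeat number term, other transcript sets, a length offset and leaving out each library. The fits were tested on simulated data. Genes and lists were chosen with earlier results of these data known.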

Additional observations from a re-analysis of the deposited data

Results flagged for a closer look

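In 5 host genes the fitted changes of 2 layers against hPSC had opposite directions, at least 1 of them passed the test, and the layers themselves differed. The share of all tested genes that met these conditions was not counted, so the number is not a result particular to host genes. MIR23AHG had -1.54 in ectoderm and 1.83 in endoderm, a difference of -3.38 (adjusted p = 0.000159). SNHG18 had -1.02 in ectoderm, against 3.78 in endoderm (difference -4.80, adjusted p = 2.35e-06) and 2.11 in mesoderm (difference -3.13, adjusted p = 0.00113). SNHG14 had 0.65 in ectoderm, against -1.14 in endoderm (difference 1.79, adjusted p = 0.000135) and -1.31 in mesoderm (difference 1.96, adjusted p = 0.000171). SNHG29 had -0.75 in ectoderm, against 0.74 in endoderm (difference -1.49, adjusted p = 0.0005) and 0.66 in mesoderm (difference -1.41, adjusted p = 0.00183). The SNHG29 change in ectoderm was called under 3 of 19 alternatives, and its direction turned with the length trend removed (0.56). MIR34AHG had -2.12 in mesoderm, against 0.43 in ectoderm (ectoderm minus mesoderm 2.55, adjusted p = 0.0034) and 0.74 in endoderm (endoderm minus mesoderm 2.85, adjusted p = 0.002). Differences are log2 values, first layer minus second, from the same edgeR fit.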

How the results depend on the processing

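Of 30 calls of single host genes against hPSC, 7 held under every alternative run: DANCR and SNHG16 in ectoderm and mesoderm, MIR22HG and SNHG18 in endoderm, and MIR302CHG in mesoderm. The other 23 were lost under at least 1, and 448 of 564 recomputed calls held. Directions turned in 3, all in ectoderm with the length trend removed: MIR302CHG (0.34), SNHG29 (0.56) and MIR205HG (0.009). Against hPSC, edgeR called 11, 9 and 10 hosts in ectoderm, endoderm and mesoderm, and DESeq2 called 4, 3 and 6. With reference-matching transcripts alone they were 7 in ectoderm and 5 in endoderm, and with the length trend removed 7 in ectoderm. Between layers DESeq2 called 5 in ectoderm against mesoderm (10 with edgeR) and 5 in endoderm against mesoderm (8 with edgeR), library totals gave 17 in ectoderm against endoderm (11 with TMM), and the length offset 13 in endoderm against mesoderm. Leaving out 1 library gave 3 to 11 calls in ectoderm, 3 to 10 in endoderm and 4 to 12 in mesoderm, and between layers 8 to 16 for ectoderm against endoderm, 3 to 13 for ectoderm against mesoderm and 6 to 9 for endoderm against mesoderm. For transcript choice it gave 0 to 2 in ectoderm and 0 to 1 in endoderm. Without 1 library a group has a lone sample, assumed to vary like the others. Transcript choice called 1 host in ectoderm with transcripts of 5 or more reads and 1 by the Simes test (2 otherwise), and 0 in endoderm with spliced transcripts alone and 0 by the Simes test (1 otherwise). Same-numbered repeats did not deviate together (correlations from -0.034 to 0.15), so a pairing of the libraries was not established. With the replicate block the counts were 9 hosts in ectoderm, 9 in endoderm and 10 in mesoderm, 10, 10 and 8 between layers in the order above, and 2, 1 and 0 for transcript choice. Adding transcripts named for a small RNA, an alternative chosen after seeing the data, gave 11, 10 and 12 against hPSC and 11, 10 and 8 between layers. Depth limits the 31 untested hosts, for which a count of 0 in 1 library allows a level of up to 2.54 to 5.95 CPM. Of the calls that held throughout, those of MIR22HG and SNHG18 are in genes with enough reads for the test only through endoderm.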

Other observations

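Of the transcripts listed under a small RNA's own name and kept out of the host sums, the one in the span of MIR34AHG had 9 and 5 reads in hPSC, 16 and 10 with ectoderm medium, 8 and 7 with endoderm medium and 1 and 1 with mesoderm medium. These values were not tested.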
